A study of Mus musculus with 8 samples.

Results

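The stretch-responsive ankyrin repeat and LIM proteins of muscle were described in dystrophic and normal diaphragm, the breathing muscle, of mice 8 weeks old. The dystrophic mice were dy/dy, whose muscular dystrophy is laminin-deficient and comes from the gene of laminin α2, and the normal mice were controls for that strain, per the labels. The sources used here do not give strain background, sex or the exact dy allele. Each group had 4 arrays, and each array held diaphragm pooled from 3 mice. The members are 8 listed genes, and 7 of them, Ankrd1, Ankrd2, Csrp3, Xirp1, Fhl1, Fhl2 and Fhl3, had a probe set whose platform annotation names that gene alone. Ankrd23 had none and was not analysed here. The 7 genes were measured by 8 of the 22690 probe sets on the array, 2 of them for Ankrd1 and 1 for each other gene. The genes were chosen by name as a family, after the differences between dystrophic and normal signal, among them the rises of Ankrd1 and Ankrd2, were known. These differences are therefore given as a description, and the adjusted p-values below place a probe set among all those on the array and do not test the family.

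Ankrd1, Ankrd2 and Ankrd23 encode the muscle ankyrin repeat proteins, which bind titin in the I-band of the sarcomere and can also enter the nucleus, where they act on transcription. Their transcripts are known to respond to stretch, injury and denervation of muscle, and Ankrd2 is typical of slow fibres. Csrp3 encodes muscle LIM protein, a LIM-only protein of the Z-disc and nucleus. Xirp1 encodes Xin, an actin-binding protein of the myotendinous junction that also appears in damaged fibres. Fhl1, Fhl2 and Fhl3 encode LIM-only proteins that bind titin, integrins or transcription factors. Fhl1 is the main form in skeletal muscle and Fhl2 in heart.

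The promoters of the members whose signals lay highest in dystrophic relative to normal pools are shown as the 250 bases before the annotated transcript start, from RefSeq on build GRCm38.p6. Of the 8 listed genes 7 had an entry there, and Xirp1 is named only. Ankrd1 and Ankrd2 both lie on chromosome 19 and Csrp3 on chromosome 7, where the first of its 2 entries is shown. Capitals mark matches on either strand to CATTCC, the core of the MCAT element bound by TEAD factors, to TATAAA, or to the CArG box bound by serum response factor.
Ankrd1, chr19:36119845-36120094, minus strand: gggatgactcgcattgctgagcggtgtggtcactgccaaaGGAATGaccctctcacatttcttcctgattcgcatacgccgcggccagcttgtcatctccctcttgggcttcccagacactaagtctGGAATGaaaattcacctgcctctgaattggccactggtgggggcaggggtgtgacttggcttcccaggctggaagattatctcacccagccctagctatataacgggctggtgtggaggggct
Ankrd2, chr19:42035777-42036026, plus strand: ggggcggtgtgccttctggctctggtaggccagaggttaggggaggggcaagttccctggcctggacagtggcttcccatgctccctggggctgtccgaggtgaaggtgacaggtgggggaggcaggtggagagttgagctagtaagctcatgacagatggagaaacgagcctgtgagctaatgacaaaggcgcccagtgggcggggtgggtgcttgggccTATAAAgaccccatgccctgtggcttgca
Csrp3, chr7:48848052-48848301, minus strand: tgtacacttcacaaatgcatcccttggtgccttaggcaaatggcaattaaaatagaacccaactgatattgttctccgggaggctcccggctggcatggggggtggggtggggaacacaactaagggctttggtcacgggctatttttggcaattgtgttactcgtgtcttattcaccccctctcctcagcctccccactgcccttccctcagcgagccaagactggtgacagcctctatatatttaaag

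The Ankrd1 window held 2 matches to CATTCC, which began 210 and 123 bases before the start, and a match to this motif occurred in 12.6% of the 32851 windows of this length in the table. The Ankrd2 window held none of these and had a TATAAA match 29 bases before the start, a motif found in 12.4% of windows. The Csrp3 window shown held neither motif. In windows not shown, TATAAA also matched 28 bases before the start in an Fhl2 window and 156 bases before it in an Fhl1 window. CATTCC also matched 120 bases before the start in an Ankrd23 window. The CArG box, found in 1.47% of windows, had no match in the windows shown and 1 match in each of the 2 Fhl2 windows and in 1 of the 2 Fhl1 windows. The E-box, searched as CANNTG, is found in 66.2% of windows and matched 1 time in Ankrd1, 3 times in Ankrd2 and 4 times in the Csrp3 window shown. The MEF2 site, found in 2.92% of windows, matched 1 time in an Fhl2 window and in no window of the other members. E-box and MEF2 matches are not capitalised, and in the sequences shown no capitalised match overlapped another. These matches describe letters in the windows.

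Signals are MAS5 intensity values rescaled to a common trimmed mean of 487.7, because the deposited trimmed mean of normal replicate 4 was 400.2 against 500.2 on the other 7 arrays. Log2 differences were taken on the scale log2(signal + 16), as dystrophic minus normal, and a change is called where limma's Benjamini-Hochberg adjusted p over 13575 tested probe sets lies below 0.05. Markers of skeletal muscle fitted the label in both groups, with Ckm at 24664 ± 2585 (SD, n = 4) in dystrophic and 28868 ± 5667 (SD, n = 4) in normal pools, and Mb at 22953 ± 799 (SD, n = 4) in dystrophic and 27380 ± 6601 (SD, n = 4) in normal pools. Lama2, the gene of laminin α2, had a signal of 270 ± 46.1 (SD, n = 4) in dystrophic and 846 ± 101 (SD, n = 4) in normal pools. Hepatocyte markers summed to 52282 in dystrophic replicate 3, to 1690 to 6217 in the other dystrophic pools, and to 1181 to 3462 in normal pools (the brightest were Alb and Apoa2), so each result is also given without that pool where it matters. Spike-in controls added to the RNA separated the arrays into a high level (replicate 1 of each group), a middle level (replicate 3 of each) and a low level (replicates 2 and 4 of each). Differences within these levels are given for the tested members. Only the low level, with 2 arrays of each group, allowed a test. The number of arrays limits the precision of every value.

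Of the 6 members that could be tested, Ankrd1 and Ankrd2 rose in dystrophic diaphragm, none fell, and Csrp3, Xirp1, Fhl1 and Fhl2 did not pass the threshold. Fhl3 was too dim to be tested. In probe sets, 3 of the 7 tested were called, against a background of 0.494% of all tested probe sets called in either direction, 0.457% called higher and 0.0368% called lower. The groups did not overlap in the same 3 probe sets, which 6.4% of tested probe sets shared in either direction and 3.87% with dystrophic pools higher. The family was chosen with this contrast known, so nothing is read from these shares. The median difference over all tested probe sets was -0.01 on the log2 scale. RNA came from whole muscle, so more cells of one type and more RNA per cell cannot be told apart.

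**Figure D1:**
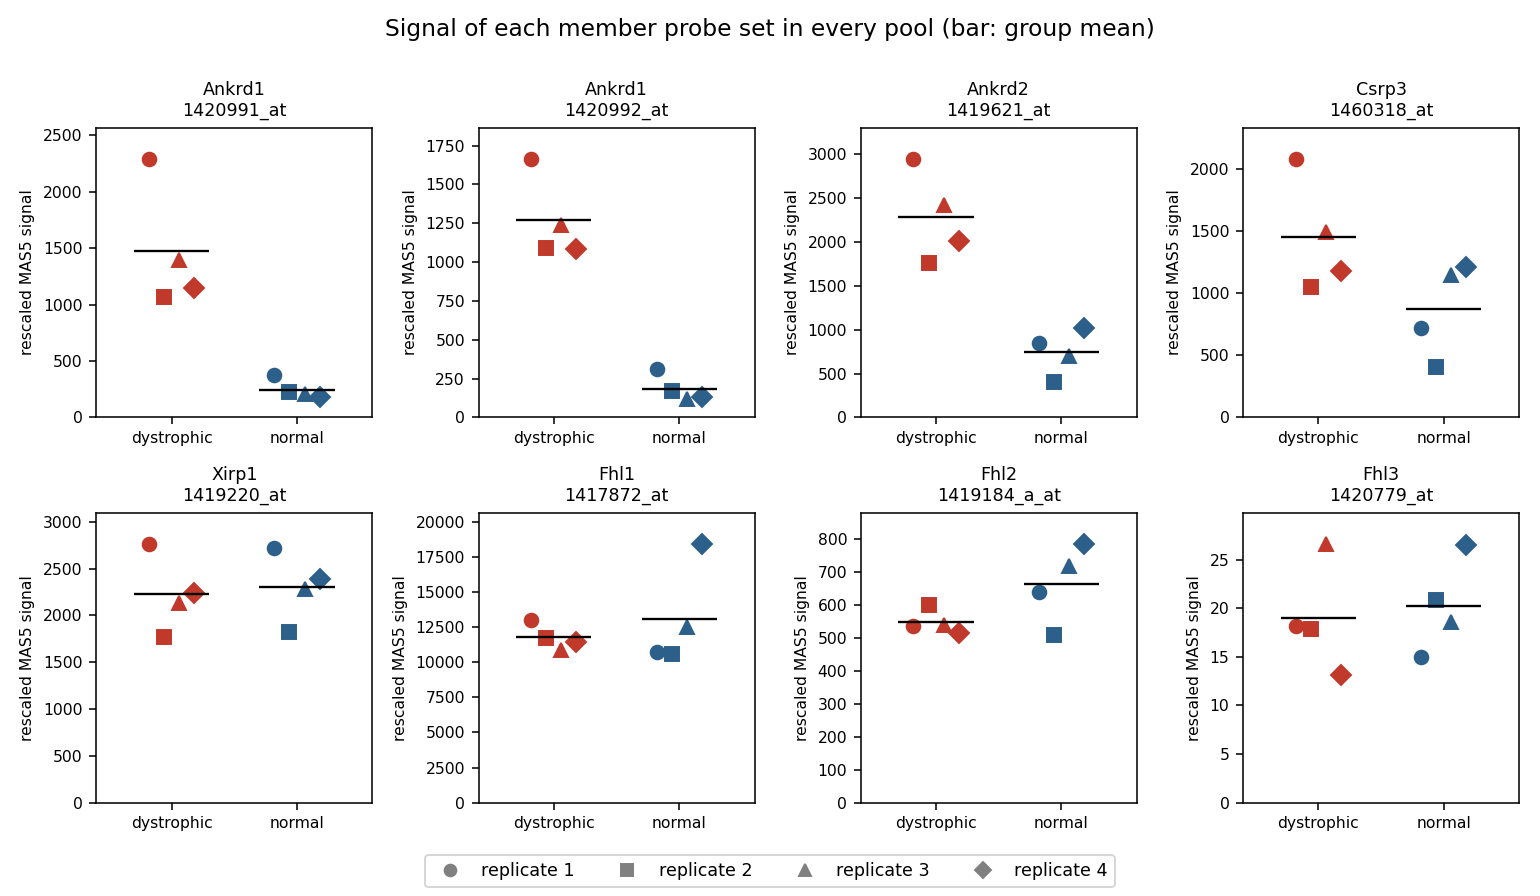
Rescaled MAS5 signal (vertical axis, linear, starting at 0) of the 8 member probe sets in each of the 4 dystrophic pools (red, left) and 4 normal pools (blue, right), with symbols for replicate numbers and bars for group means. The groups do not overlap for Ankrd1 (both probe sets) and Ankrd2, and overlap in the other 5 panels.

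Ankrd1, the cardiac ankyrin repeat protein gene, had the largest differences of the family. Its first probe set had signals of 2292, 1064, 1395 and 1144 in dystrophic replicates 1 to 4, and of 376, 226, 203 and 183 in normal replicates 1 to 4. Every dystrophic pool lay above every normal pool, and the lowest dystrophic signal was well clear of the highest normal one. The means were 1474 ± 564 (SD, n = 4) in dystrophic and 247 ± 87.8 (SD, n = 4) in normal pools, a ratio of 5.96. The log2 difference was 2.49 (SE 0.26, 95% interval 1.91 to 3.06, limma adjusted p = 0.00221).

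The second Ankrd1 probe set gave 1666, 1092, 1236 and 1084 in dystrophic replicates 1 to 4, against 313, 172, 119 and 135 in normal replicates 1 to 4. Again the groups did not overlap, and replicate 1 had the highest signal within each group in both probe sets. The means were 1269 ± 273 (SD, n = 4) in dystrophic and 185 ± 88.3 (SD, n = 4) in normal pools, a ratio of 6.88. Its log2 difference of 2.75 (SE 0.26, limma adjusted p = 8.91e-04) lay within the 95% interval of the first probe set. Both probe sets derive from the same transcript accession, so they are repeat measurements of 1 gene and not separate evidence.

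Ankrd1 differences were positive at each spike-in level. For the first probe set the log2 difference was 2.56 at the high, 2.68 at the middle and 2.35 at the low level, and at the low level the limma adjusted p was 0.0138. For the second it was 2.36, 3.22 and 2.71 at the same levels, with an adjusted p of 0.00861 at the low level. Replicate 1, which carried the highest Ankrd1 signal in both groups, was the pair of arrays at the high level. Without dystrophic replicate 3, the pool with the hepatocyte transcripts, the differences were 2.49 and 2.75.

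Ankrd2, the ankyrin repeat protein gene of slow fibres, had signals of 2948, 1764, 2417 and 2008 in dystrophic replicates 1 to 4. The normal replicates 1 to 4 had 853, 400, 700 and 1013. The groups did not overlap, and normal replicate 2 was the lowest pool. The means were 2284 ± 518 (SD, n = 4) in dystrophic and 742 ± 261 (SD, n = 4) in normal pools, a ratio of 3.08, with a log2 difference of 1.65 (SE 0.26, 95% interval 1.09 to 2.22, limma adjusted p = 0.0165). The 95% intervals of Ankrd2 and of each Ankrd1 probe set overlapped only in part, and the difference between these genes was not tested.

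The Ankrd2 call was less firm than that of Ankrd1. It was lost without dystrophic replicate 1, 3 or 4 or normal replicate 3, at adjusted p = 0.0513, 0.0672, 0.0637 and 0.0521 by limma, while the log2 difference stayed between 1.39 and 1.83 over all 8 omissions. The log2 difference was 1.77 at the high, 1.77 at the middle and 1.54 at the low spike-in level, where it did not pass (limma adjusted p = 0.322). Both Ankrd1 probe sets passed in all 8 omissions, with log2 differences of 2.25 to 2.69 and 2.59 to 3.02.

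**Figure D2:**
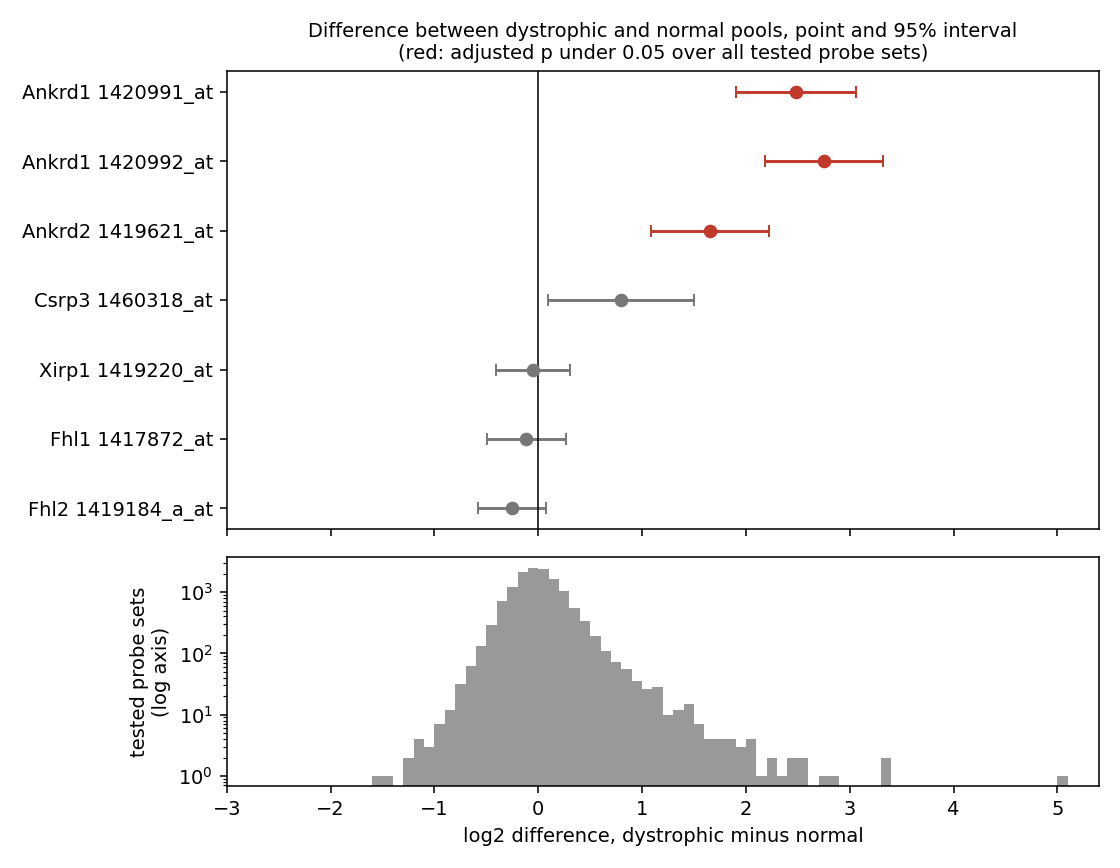
Upper panel, log2 difference (dystrophic minus normal) of the 7 tested member probe sets with 95% intervals, red where the adjusted p is below 0.05. Lower panel, histogram of the same quantity over all 13575 tested probe sets, with counts on a log axis. The Ankrd1 points at 2.49 and 2.75 and the Ankrd2 point at 1.65 lie in the thin right tail, and the intervals of Xirp1, Fhl1 and Fhl2 include 0. The interval of Csrp3, 0.09 to 1.503, lies above 0, although its limma adjusted p of 0.452 did not pass.

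Csrp3, the muscle LIM protein gene, was higher on average in dystrophic pools but did not pass the threshold. Its signals were 2084, 1053, 1492 and 1179 in dystrophic replicates 1 to 4 and 722, 404, 1151 and 1211 in normal replicates 1 to 4. Dystrophic replicates 2 and 4 lay below normal replicate 4, so the groups overlapped. The means were 1452 ± 460 (SD, n = 4) in dystrophic and 872 ± 381 (SD, n = 4) in normal pools, a ratio of 1.67. The log2 difference was 0.80 (SE 0.32, 95% interval 0.09 to 1.503, limma adjusted p = 0.452). It was 1.51 at the high, 0.37 at the middle and 0.66 at the low spike-in level. The high and middle levels each held 1 array of each group, so a difference between levels cannot be read from these values. The Csrp3 difference was 0.61 without dystrophic replicate 1 and 0.48 without normal replicate 2.

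Xirp1, the Xin gene, had nearly equal levels in the groups. Its signals were 2767, 1773, 2135 and 2237 in dystrophic replicates 1 to 4, and 2720, 1828, 2281 and 2386 in normal replicates 1 to 4. In each group replicate 1 was the highest pool and replicate 2 the lowest, and the spread between pools was wider than the gap between group means. The means were 2228 ± 411 (SD, n = 4) in dystrophic and 2304 ± 368 (SD, n = 4) in normal pools. The log2 difference was -0.05 (SE 0.16, limma adjusted p = 0.956), and its 95% interval of -0.41 to 0.31 leaves room for modest changes in either direction. At the high, middle and low spike-in levels the Xirp1 difference was 0.02, -0.10 and -0.07.

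Fhl1, the skeletal muscle LIM-only gene, was among the brightest probe sets on the array, above 99.5% of those that are not controls. Its signals were 13014, 11759, 10885 and 11489 in dystrophic replicates 1 to 4, and 10722, 10576, 12531 and 18463 in normal replicates 1 to 4. Normal replicate 4 stood above all other pools, at 15150 before rescaling, and the remaining 7 pools lay close together. The means were 11787 ± 896 (SD, n = 4) in dystrophic and 13073 ± 3701 (SD, n = 4) in normal pools, with a log2 difference of -0.11 (SE 0.17, 95% interval -0.49 to 0.27, limma adjusted p = 0.895). Without normal replicate 4 the log2 difference was 0.07. At the high, middle and low spike-in levels the Fhl1 difference was 0.28, -0.20 and -0.27.

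Fhl2, the LIM-only gene that is most abundant in heart, had signals of 536, 598, 537 and 514 in dystrophic replicates 1 to 4. The normal replicates 1 to 4 had 638, 508, 716 and 784. Normal replicate 2 was the lowest of all 8 pools, so the groups overlapped although the other 3 normal pools lay above every dystrophic one. The means were 546 ± 36.1 (SD, n = 4) in dystrophic and 662 ± 119 (SD, n = 4) in normal pools, with a log2 difference of -0.25 (SE 0.15, 95% interval -0.58 to 0.08, limma adjusted p = 0.639). Without normal replicate 2 the log2 difference was -0.37. At the high, middle and low spike-in levels the Fhl2 difference was -0.25, -0.40 and -0.18.

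Fhl3, a LIM-only gene known in myoblasts and muscle, had a probe set with signals of 18.1, 17.8, 26.6 and 13.2 in dystrophic replicates 1 to 4 and of 15.0, 20.9, 18.5 and 26.4 in normal replicates 1 to 4. All 8 values lay among those of the TrpnX negative controls, which ran between 0.78 and 32.2, and only 11.4% of probe sets were as dim or dimmer. It was left out of the test as dim, and no level of Fhl3 can be read from this probe set.

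Members differed in how much they varied between pools of the same group. The pooled SD within groups on the log2 scale was 0.59 for Csrp3, wider than or equal to that of 96.1% of tested probe sets. It was 0.47 and 0.45 for the Ankrd1 probe sets and 0.46 for Ankrd2, at 91.6%, 90.6% and 91.3% of tested probe sets. Xirp1, Fhl1 and Fhl2 had 0.25, 0.28 and 0.20, at 51.7%, 59.9% and 30.9%. Wide and narrow spread thus occurred within the family, and the called members were among the more variable probe sets of the array.

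Dystrophic replicate 1 lay above its group mean and dystrophic replicate 2 below it for the 2 Ankrd1 probe sets, Ankrd2, Csrp3 and Xirp1. Dystrophic replicate 1 was higher by 0.70 and 0.41 for Ankrd1, 0.39 for Ankrd2, 0.57 for Csrp3 and 0.33 for Xirp1 on the log2 scale. Normal replicate 2 lay at -0.79 for Ankrd2, -0.96 for Csrp3, -0.32 for Xirp1 and -0.35 for Fhl2, but at -0.07 and 0.00 for the Ankrd1 probe sets. After rescaling, normal replicate 4 was the highest normal pool for Ankrd2, Csrp3, Fhl1 and Fhl2, and Ankrd1 was not high there. Before rescaling, it was the highest of the normal pools for Fhl1 alone among these genes. Ankrd2 was then highest in normal replicate 1, at 875 against 831.6 in normal replicate 4. Csrp3 and Fhl2 were then highest in normal replicate 3, at 1181 against 994 and at 734 against 644.

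**Figure D3:**
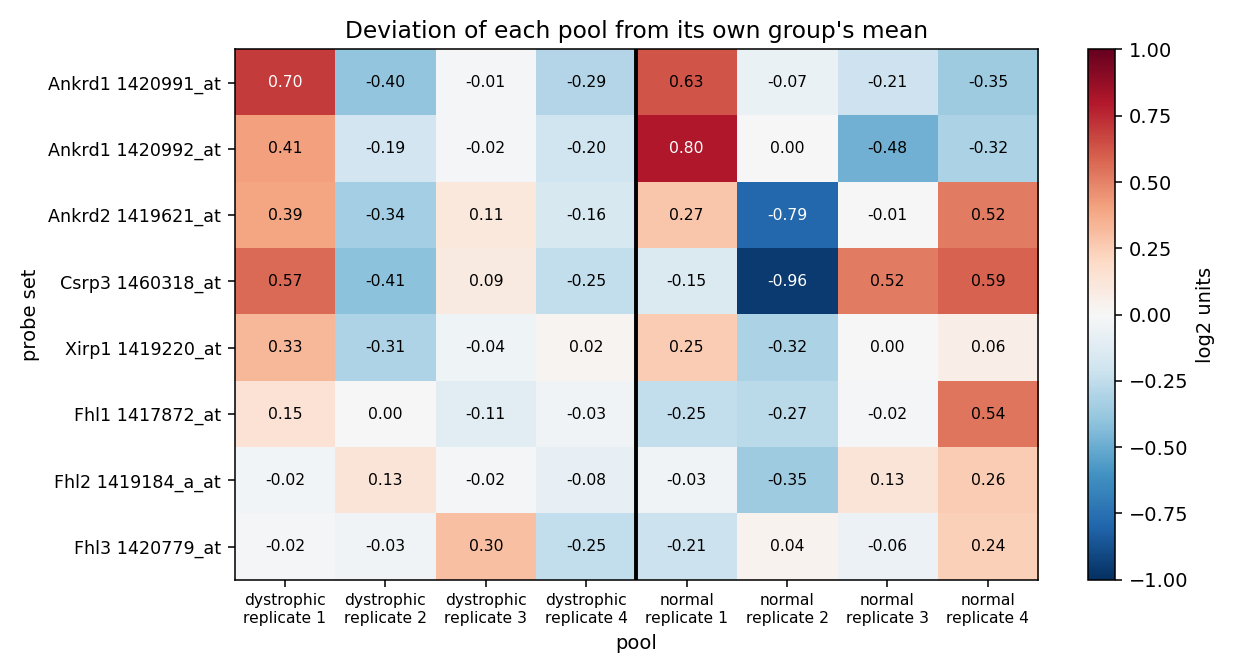
Log2 deviation of each pool (columns, 4 dystrophic at left and 4 normal at right) from the mean of its own group, for the 8 member probe sets (rows), with the value printed in each cell. Dystrophic replicate 1 is raised for Ankrd1, Ankrd2, Csrp3 and Xirp1, and normal replicate 2 is lowest for Csrp3 at -0.96 and Ankrd2 at -0.79.

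Genes with profiles most like those of the variable members were sought among 8213 genes, by the root mean square difference between centred log2 profiles over the 8 arrays. This measure includes the difference between groups, so genes with a similar rise are favoured. Nearest to Ankrd1 were Serpina3n, an acute-phase protease inhibitor, at 0.59, the macrophage gene Mpeg1 at 0.59, the matrix gene Thbs4 at 0.60, Ankrd2 at 0.61 and Mybph, a myosin-binding protein, at 0.61 log2 units, against a median of 1.32 over all genes. Their log2 differences lay between 1.65 and 2.13.

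Nearest to Ankrd2 were Chrna1, the acetylcholine receptor α subunit, at 0.38, the calcium channel subunit Cacng1 at 0.42, the macrophage gene Gpnmb at 0.43, Armh4 at 0.46 and the galectin gene Lgals3 at 0.47, against a median of 0.95. All 5 rose, by 1.17 to 1.56 on the log2 scale. Nearest to Csrp3 were Rrad, a small GTPase of muscle, at 0.36, Ptgds at 0.37, the adaptor gene Dok2 at 0.38, Gm4802 at 0.39 and Akr1b10 at 0.39, against a median of 0.69, and none of these was called. Xirp1, Fhl1 and Fhl2 spanned 0.64, 0.80 and 0.61 log2 units over the 8 arrays, under the 1 unit set for this search.

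Genes of proteins that surround the members in the sarcomere were set beside them. Among titin, Z-disc and costamere genes, 0 of 24 tested passed limma's threshold in either direction, against 0.494% of all tested probe sets. With so low a share over the array, nothing is read from 0 calls in a short list. In this list 3 genes had an unadjusted p under 0.05. The share of all probe sets under that value is not given here, so such counts are not read as results. The median log2 difference of the list was -0.07, against -0.01 over all tested probe sets. Ttn, the gene of titin, had a signal of 16624 ± 870 (SD, n = 4) in dystrophic and 19231 ± 3137 (SD, n = 4) in normal pools, and Tcap, which caps titin at the Z-disc, had 17863 ± 664 (SD, n = 4) in dystrophic and 19720 ± 4319 (SD, n = 4) in normal pools. The 3 with an unadjusted p under 0.05, picked out after their values were seen, were Flnc, the filamin that binds Xin, at 0.60 (SE 0.17), the titin-bound protease Capn3 at -0.48 (SE 0.16), and the integrin-linked kinase Ilk at 0.37 (SE 0.13) on the log2 scale. Their limma adjusted p was 0.209, 0.286 and 0.372.

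Among other LIM-domain and ankyrin repeat genes, 1 of 26 tested fell, none rose and 25 did not pass, with a median log2 difference of 0.08. Over all tested probe sets 0.0368% were called lower and 0.457% higher. The gene that fell was Asb15, an ankyrin repeat and SOCS box adaptor of muscle, at 387 ± 55.9 (SD, n = 4) in dystrophic and 828 ± 180 (SD, n = 4) in normal pools, or -1.05 on the log2 scale (SE 0.18, limma adjusted p = 0.029). The brightest genes of this list were Pdlim1, at a log2 difference of -0.18 (SE 0.16), and Lmcd1, at 0.17 (SE 0.15). Csrp1 and Csrp2, the relatives of Csrp3 outside striated muscle, lay at -0.02 (SE 0.15) and 0.36 (SE 0.17), named after their values were seen, and did not pass.

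Ankrd1 is a known target of YAP with TEAD factors, and several members are regulated by serum response factor. In a list of such factors and targets that leaves out the members, 0 of 23 tested genes passed limma's threshold. The share over all tested probe sets was 0.494%. In the list 1 gene had an unadjusted p under 0.05. The median log2 difference was -0.04. Its brightest genes were Acta1, skeletal α-actin, at -0.20 (SE 0.16), and the small heat shock gene Hspb1, at -0.19 (SE 0.19). The 1 gene, Ccn2, connective tissue growth factor, had 1429 ± 171 (SD, n = 4) in dystrophic and 978 ± 173 (SD, n = 4) in normal pools. Every dystrophic pool lay above every normal pool, as in 3.87% of all tested probe sets. Its log2 difference was 0.55 (SE 0.15, limma adjusted p = 0.192), and it too was picked out after its value was seen. The groups did not overlap for Axl either, at 0.22 (SE 0.12), also picked out after its value was seen.

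**Figure D4:**
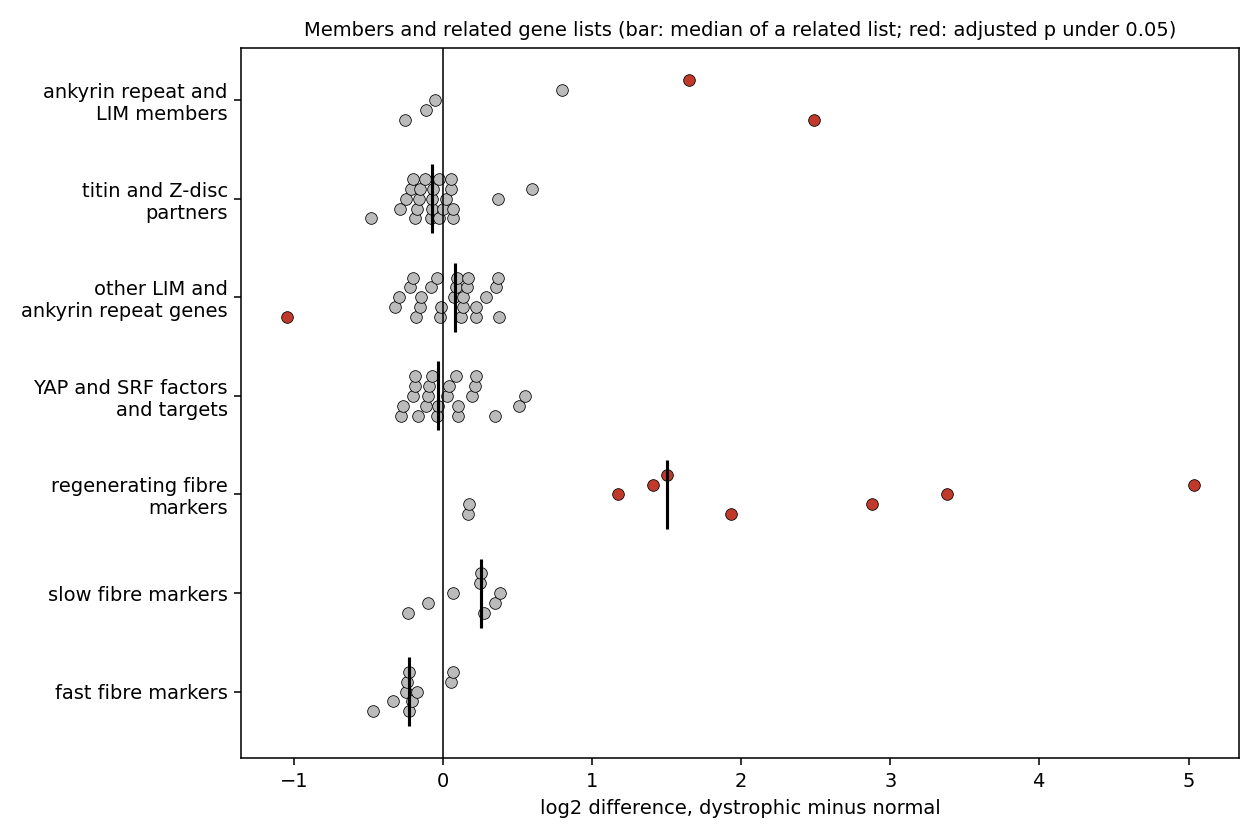
Log2 difference (horizontal axis, dystrophic minus normal) of each tested gene by its brightest probe set, for the members (top row) and 6 related gene lists, red where the adjusted p is below 0.05, with a bar at the median of each related list. Called rises are seen in the rows of members and regenerating fibre markers, Asb15 is the called fall at -1.05, and the other rows lie around 0.

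Called rises also occurred among markers of regenerating fibres, fibroblasts and macrophages. None occurred among markers of smooth muscle, heart, slow fibres or fast fibres. Of all tested probe sets 0.457% were called higher and 0.0368% lower, so the absence of calls in a short list is not read as a result. Of 9 tested markers of regenerating or immature fibres, 7 rose, by 1.18 to 5.03 on the log2 scale (Chrna1, Myog, Myl4, Tnnt2, Myh8, Myh3 and Ncam1), and the other 2, Myod1 at 0.18 (SE 0.14) and Cdh15 at 0.17 (SE 0.18), named to complete the count, did not pass. The remaining gene of the list, Mymk, was left out of the test by the filter on dim probe sets. It had 432 ± 110 (SD, n = 4) in dystrophic and 26.6 ± 15.2 (SD, n = 4) in normal pools. The summed signal of the 10 genes of that list on the array was 5556 to 8827 in dystrophic pools and 1932 to 2036 in normal pools. By pool the sums were 5739, 5556, 8517 and 8827 in dystrophic replicates 1 to 4. The part of regenerating fibres in the Ankrd1 and Ankrd2 differences was not tested.

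Fibroblast markers summed to 38815 to 49259 in dystrophic and 26369 to 31651 in normal pools, with 3 of 8 tested called higher (Postn, Lum and Col1a2). The brightest, Dcn and Col3a1, lay at log2 differences of 0.29 (SE 0.13) and 0.40 (SE 0.20) and did not pass. Macrophage markers summed to 7829 to 9660 in dystrophic and 4556 to 5222 in normal pools, with 4 of 9 called higher (Lgals3, Mpeg1, Ctss and Cd68). The brightest, Csf1r and Adgre1, lay at 0.51 (SE 0.11) and 0.75 (SE 0.19) on the log2 scale and did not pass. Smooth muscle markers had 0 of 7 called by limma, 1 with an unadjusted p under 0.05, and sums of 17587 to 23782 in dystrophic and 20688 to 25655 in normal pools. The brightest, Des, which muscle fibres also express, and Rgs5, lay at -0.07 (SE 0.17) and -0.25 (SE 0.29). The part of these cells in the differences of the members was not tested.

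Ankrd1, Csrp3 and Fhl2 are abundant in heart. Of a list of 10 heart markers 5 were below the filter on dim probe sets, among them the 4 taken as defining. Myl7 had 4.49 to 24.4 in dystrophic and 4.48 to 29.0 in normal pools, below the highest TrpnX negative control. Myh6 had 37.5 to 57.3 in dystrophic and 6.14 to 43.0 in normal pools, Nppa had 33.2 to 101 in dystrophic and 18.9 to 118 in normal pools, and Ryr2 averaged 94.0 ± 32.4 (SD, n = 4) in dystrophic and 124 ± 24.0 (SD, n = 4) in normal pools. The fifth dim gene, Tnni3, averaged 29.7 ± 18.3 (SD, n = 4) in dystrophic and 26.8 ± 13.8 (SD, n = 4) in normal pools. The other 5 were above the filter. Sln, which diaphragm itself expresses, averaged 16513 ± 958 (SD, n = 4) in dystrophic and 15133 ± 5501 (SD, n = 4) in normal pools, and Gja1 averaged 1556 ± 67.0 (SD, n = 4) in dystrophic and 1494 ± 262 (SD, n = 4) in normal pools. Kcnj3, Nppb and Bmp10 averaged 270, 147 and 114 in dystrophic and 281, 143 and 153 in normal pools. The whole list of 10 summed to 17331 to 19906 in dystrophic and 11446 to 24832 in normal pools, mostly from Sln, and 0 of 5 tested were called by limma, with 0 at an unadjusted p under 0.05.

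Slow-fibre markers, the fibre type in which Ankrd2 is typical, had 0 of 8 called by limma (0.494% over all tested probe sets). In this list 1 had an unadjusted p under 0.05. Of these 8, 6 lay above 0 and 2 below. Their median log2 difference was 0.25. They summed to 88707, 85624, 82493 and 82345 in dystrophic replicates 1 to 4. In normal replicates 1 to 4 they summed to 84202, 64569, 86367 and 86213. The brightest, Atp2a2 and Myl2, lay at -0.24 (SE 0.18) and -0.10 (SE 0.15). Myh7 and Tnnt1, picked out after their values were seen, lay at 0.25 (SE 0.11) and 0.25 (SE 0.12), and their groups did not overlap (6.4% over all tested probe sets). Fast-fibre markers had 0 of 10 called, 1 with an unadjusted p under 0.05, and a median log2 difference of -0.23, with 2 above 0. They summed to 153788 to 171835 in dystrophic and 157970 to 247801 in normal pools, highest in normal replicate 4. The brightest of these markers, Atp2a1 and Tnni2, lay at -0.23 (SE 0.17) and -0.25 (SE 0.15). Pvalb and Tnnt3, also picked out after their values were seen, lay at -0.47 (SE 0.15) and -0.23 (SE 0.13). Their groups did not overlap either. Tnni1 had the highest log2 difference of the tested slow-fibre markers, at 0.38 (SE 0.19), seen after the fact. The part of slow and fast fibres in the Ankrd2 log2 difference of 1.65 was not tested.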

How the data were processed

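The authors deposited MAS5 signal intensity values on a linear scale, 1 column per array, and per the submitters' processing notes MAS5 was the tool. The sources used here give no version, detection calls or scan dates. Of 22690 probe sets 64 are controls. Among the rest 20380 had 1 gene symbol in the platform annotation, 691 several and 1555 none, and 20351 of the first were matched by Entrez identifier to a RefSeq gene table of GRCm38.p6.

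Arrays were rescaled to 1 trimmed mean (2% off each end) because they differed by over 10%. Values were analysed as log2(signal + 16), without the dimmest 40%, in limma 3.58.1 (R 4.3.3, lmFit, then eBayes with a trend on intensity). P-values were adjusted by Benjamini-Hochberg over 13575 probe sets. Genes with several probe sets were read from the brightest by mean log2 value. The fit was tested on simulated data. Figures used matplotlib 3.10.9 in Python 3.11.15.

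The members, gene lists and alternatives were chosen with earlier results of these data known. Named genes were every member, the 5 genes nearest to each member that spans at least 1 log2 unit, and from each list the called members and the 2 brightest. Lama2, the heart markers, genes that complete a count, and genes described in the text as picked after their values were seen, were named beside these. Spike-in level is the geometric mean of 12 poly-A control probe sets. Same-numbered arrays were checked as pairs. Alternatives were offsets of 1 and 64, deposited scaling, a 75th percentile shift, quantile normalization, no filter, a 60% filter, 3 variance models, replicate and spike-in blocks, arrays left out, and a threshold of 0.01.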

Additional observations from a re-analysis of the deposited data

How the results depend on the processing

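Of 21 other ways of processing the values, Ankrd1 passed limma's threshold in all 21 with both probe sets, at log2 differences of 2.25 to 2.69 and 2.46 to 3.02. Ankrd2 passed in 17, at 1.39 to 1.83, and the 4 losses were those without dystrophic replicate 1, 3 or 4 or normal replicate 3. Beyond these 21, it was also lost within the low spike-in level (1.54, limma adjusted p = 0.322) and at a threshold of 0.01, while both Ankrd1 probe sets passed in each. Csrp3, Fhl1, Fhl2 and Xirp1 passed in 0 of 21 (lowest limma adjusted p 0.233, 0.745, 0.494 and 0.796). Csrp3 stayed above 0 and Fhl2 below 0 in all 21, and Xirp1 and Fhl1 were above 0 in 3 each. The number of member probe sets called was 3, ranged from 2 to 3 with 1 array left out, and was 2 at a threshold of 0.01 and 2 within the low spike-in level. With the replicate number as a block it was also 3, among 105 of all probe sets against 67 without. Same-numbered arrays correlated at 0.48, -0.05, 0.15 and 0.13 in their deviations across probe sets. Since 1 of 4 pairs was not above 0.1, the numbers were not taken as pairs, although 3 of 4 were and same-numbered arrays also lay in the same spike-in level. Not every array correlated best with its own number, and replicate 1 was the pair that stood furthest above its other pairings (-0.25 to -0.11). The count over all probe sets was 127 with array weights and 114 with the spike-in level as a block. It was 34, 29 and 25 without dystrophic replicate 2, 3 or 4, 31 without normal replicate 4 and dystrophic replicate 3 together, 24 at a threshold of 0.01 and 6 within the low spike-in level. The causes were not tested. Fhl3 could be fitted only with no filter, at -0.06 (SE 0.19, limma adjusted p = 0.974). Dim signal limits what can be said of Fhl3.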
